A study of Salmo salar with 31 samples.

Results

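In skin of Atlantic salmon, 159 of the 14841 features on the array stood apart between the rearing systems in the same direction at both sea samplings, 116 of them higher in net-pen than in S-CCS and 43 lower. Net-pen stands for fish whose label reads open cage, and S-CCS for fish of the close containment system, a floating semi-closed raceway fed with water pumped from depth. Members were chosen by the measured values. In the deposited table, M was the median over the fish of a group of the log2 intensity, with blanks and intensities under 16 set to 16. A feature entered when its highest M in any of the 5 groups was at least 6, which 9008 features reached, and when M in net-pen minus M in S-CCS was at least 0.6 (1.52-fold) after both 1 month (1M) and 4 months (4M) in seawater, or at most -0.6 at both. The difference between the systems is therefore described here without a test.

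Skin RNA of each of 31 fish was hybridized to its own array with a single dye. There were 7 smolts, sampled in freshwater before transfer, and post-smolts of 4 groups, net-pen 1M, S-CCS 1M, net-pen 4M and S-CCS 4M, with 6 fish each. All fish came from one production batch of smolts that was split between the systems. Sampling was lethal, so each fish was measured once, and fish that carry the same number in different groups are different animals. Each system was a single enclosure at its own site. System, enclosure, site, water temperature, salinity and current cannot be told apart. The paper reports warmer and less saline water in net-pen, and a constant current in S-CCS. At 4M it also gives a higher mean weight of sampled fish in net-pen, without passing its pairwise test. The part of fish size was not tested. The arrays of both systems shared none of the 10 slides at either time, so slide and system cannot be told apart either. Net-pen 1M filled 3 slides of its own. In the tests of 1M against smolts and of 4M against 1M, slide and net-pen 1M therefore cannot be told apart. Each of the other sea groups shared some slides with smolts. Fish of one enclosure shared its water and feed, and the p-values below measure the spread between these fish.

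Fish skin consists of an epidermis of living cells with scattered mucus cells, which faces the water directly, and a dermis of scales and collagen-rich connective tissue with vessels and pigment cells. Below the dermis lie fat and muscle. It is a barrier to water, ions and microbes, and it meets a reversed salt gradient when a smolt enters the sea. The features are known here only by probe ID. None of these IDs matched the 65341 genes of the reference table, so members carry neither gene names nor functions, and the tissue could not be checked against markers of its cell types. In such bulk samples, fewer cells of a type and less RNA per cell cannot be told apart.

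The share of features well above background lay between 84.3% and 97.1% over the arrays, and no spot was saturated. The deposited values carried a small shift between the systems. Over the 9008 features, net-pen minus S-CCS had a median of -0.15 at 1M and 0.12 at 4M on the log2 scale. The members stood on top of this shift. At 1M net-pen was higher by at least 0.6 in 571 features (6.34%) and lower by as much in 751 (8.34%). At 4M the counts were 1028 (11.4%) and 496 (5.51%). As many as 378 features passed 0.6 at both times in opposite directions, 169 higher in net-pen at 1M and lower at 4M and 209 the other way round, more than the 159 that kept one direction. The slide layout was crossed, however. Of the 10 slides, 6 held the net-pen fish of 1M or the S-CCS fish of 4M. The remaining 4 held the S-CCS fish of 1M, the net-pen fish of 4M or both. Any difference between these slide sets would enter net-pen minus S-CCS with opposite signs at the times. The part of the slides in the shift and in the 378 features was not tested.

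**Figure D1:**
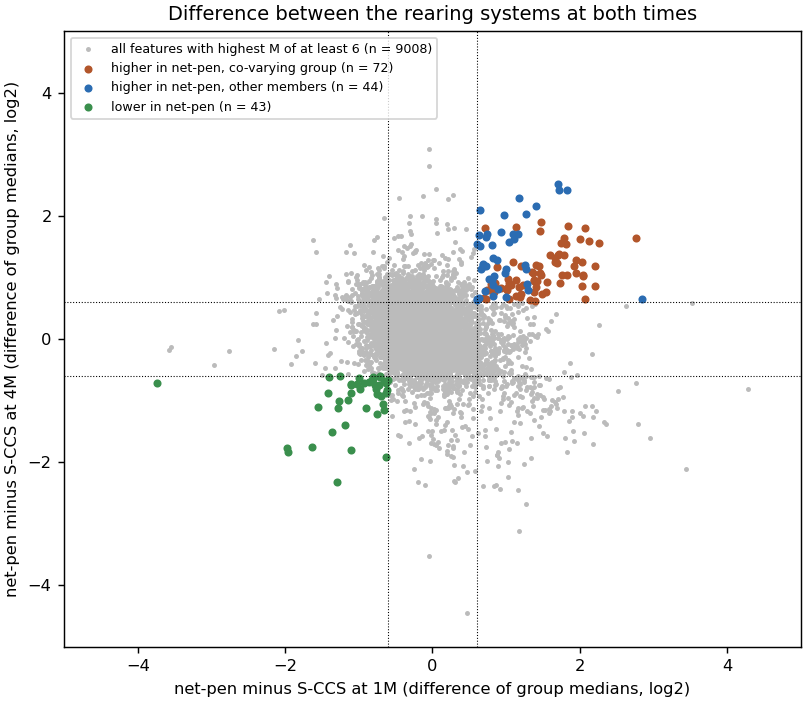
Difference of group medians, net-pen minus S-CCS, on the log2 scale, at 1M (horizontal axis) and at 4M (vertical axis) for 9008 features, with dotted lines at 0.6 and -0.6. The 116 members higher in net-pen fill the upper right corner and the 43 lower ones the lower left, and both corners hold fewer features than the other 2 corners together (378).

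Among the 116 features higher in net-pen, the log2 difference ran from 0.61 to 2.85 at 1M with a median of 1.22, and from 0.61 to 2.52 at 4M with a median of 1.11. In 49 of them it was at least 1 at both times. Among the 43 lower ones it ran from -3.74 to -0.61 at 1M with a median of -0.93, and from -2.32 to -0.60 at 4M with a median of -0.83, and 10 passed -1 at both times. The difference was the larger one at 1M in 70 of 116 and in 24 of 43. Just inside the limit were Ssa#GRASP209735437 with 0.61 at 1M and 0.64 at 4M, and Ssa#KSSb2350 with 0.61 and 0.65. Just outside were Ssa#EG863799 with 0.85 and 0.59, and Ssa#TC105153 with 1.16 and 0.59. On the other side, Ssa#S51751177 (-0.71 and -0.60) and Ssa#S35499883 (-1.25 and -0.61) were inside, and Ssa#DV644302 (-0.69 and -0.60, before rounding above -0.6) and Ssa#S35582818 (-1.49 and -0.59) outside.

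A difference of medians did not mean that the fish of the systems were separate. Of the 116 higher members, 2 had no overlap between net-pen and S-CCS fish at 1M (0.599% of the 9008 features did, net-pen above) and 14 had none at 4M (6.72%). No member had none at both times (0.0222%). Of the 43 lower members, 5 did not overlap at 1M (3.26%, net-pen below), 4 at 4M (1.35%) and 2 at both (0.144%). These 2 were Ssa#TC110119 and Ssa#CA062679. Since the same values chose the members, nothing is read from these shares.

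The 116 higher members fell into parts that behaved differently from fish to fish. Deviations of each fish from its group mean were correlated between members over the 31 fish, which leaves out the differences between groups that chose them. By average linkage cut at a distance (1 minus r) of 0.5, 72 of 116 formed one group, called the co-varying group here, with a median pairwise r of 0.89 and a range from 0.61 to 0.98 between the 5th and 95th percentiles. The other 44 had a median pairwise r of 0.08 and the 43 lower members one of 0.12. The next clusters among the higher members held 11, 5 and 4 features, with a median r of 0.61, 0.74 and 0.73. The lower members formed no cluster of more than 5. These correlations are descriptions over fish that share array scaling.

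**Figure D2:**
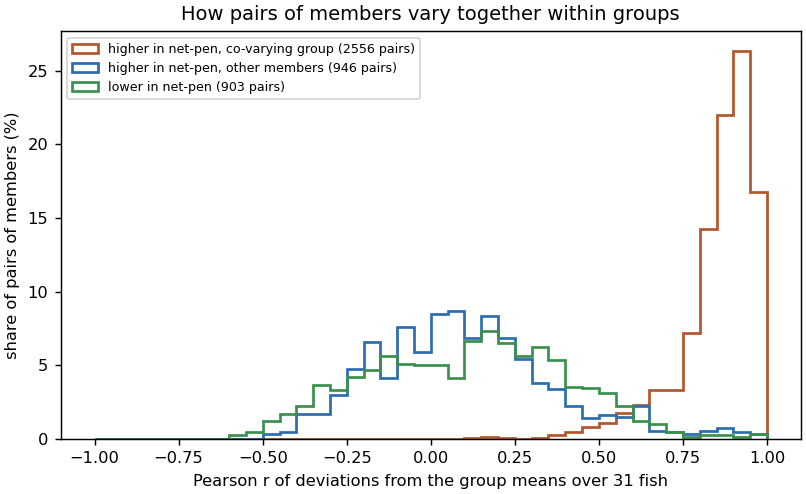
Distribution of Pearson r between pairs of members, computed on each fish's deviation from its group mean over 31 fish, as a share of pairs in %. Pairs within the co-varying group lie mostly between 0.61 and 0.98 (median 0.89), and pairs of the other 44 higher members and of the 43 lower members centre at 0.08 and 0.12.

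By the median, the members of the co-varying group also varied most between fish of one group. Their within-group SD had a median of 1.60 on the log2 scale, against 0.71 in the other 44, 0.61 in the lower members and 0.29 over the 9008 features. The largest SD was 2.34 in the group and 2.49 in the other 44. Features with a wide spread pass a rule on medians of 6 fish more easily. Nothing is therefore read from the contrast with the 9008 features. The mean level of the 72, relative to the mean of the 5 group medians, is given here per group as lowest, median and highest fish. In net-pen 1M it was -0.04, 1.18 and 1.71. In S-CCS 1M it was -2.27, -0.34 and 1.41. Fish of the systems overlapped at 1M over most of the net-pen range, and 2 of 6 net-pen fish lay above every S-CCS fish.

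At 4M the level of the co-varying group was -3.59, -0.18 and 1.60 in net-pen and -3.31, -1.34 and 0.35 in S-CCS. Only 1 of 6 net-pen fish lay above every S-CCS fish, and the lowest fish of all 31, net-pen 4M fish 12, was a net-pen fish. In smolts the level was -2.45, 0.74 and 1.86, a range of 4.31, where net-pen fish ranged over 1.74 at 1M and 5.19 at 4M, and S-CCS fish over 3.67 and 3.66. The difference of medians at 1M was 1.52 and moved between 0.69, without S-CCS 1M fish 12, and 2.35, without S-CCS 1M fish 1. At 4M it was 1.16, and 0.95 to 1.38 without one fish.

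**Figure D3:**
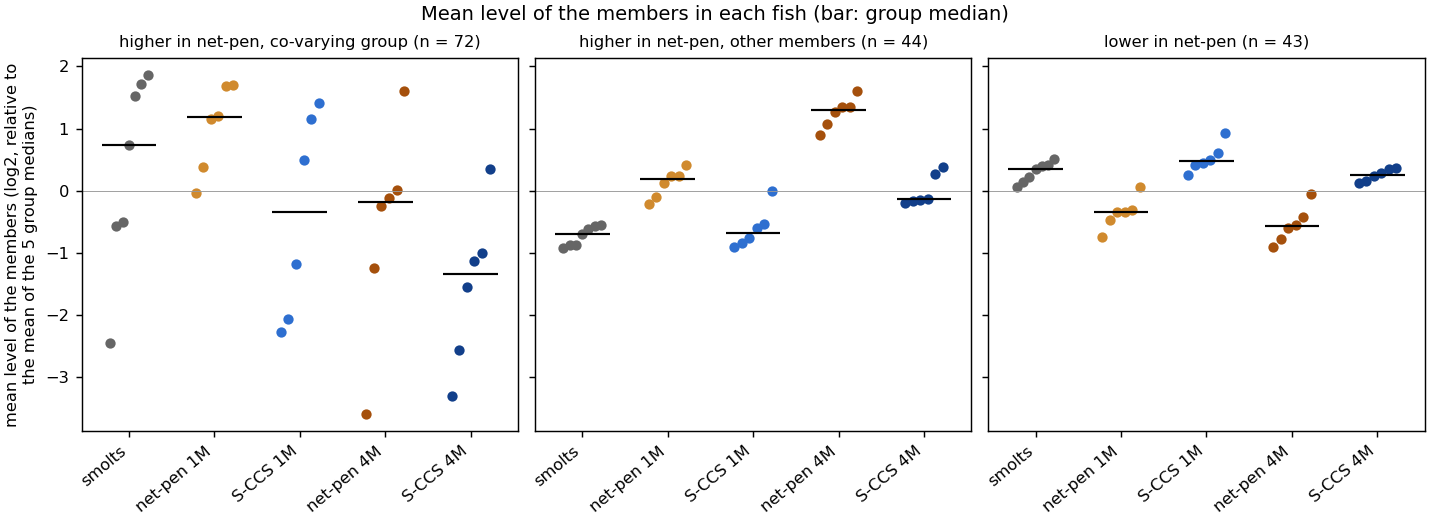
Mean level of the members in each fish (points, log2 relative to the mean of the 5 group medians; bars are group medians) for the 72 co-varying features, the other 44 higher members and the 43 lower members. Fish of both systems overlap widely in the first panel, where the level runs from -3.59 to 1.86. The spread of the mean within a group is small in the other panels. Averaging members that vary little together narrows it, and single members there had a median within-group SD of 0.71 and 0.61.

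The level of the co-varying group was correlated over the 31 fish with measures of the array, each taken as a deviation from its group mean. The correlation was 0.04 with the share of features well above background and 0.06 with the ratio of spot to background signal. With the log2 mean signal of the array it was 0.38. The relation across groups was not computed. The part of the mean signal in the result was not tested. The co-varying features reached beyond the members. Across the array, 272 features had r of at least 0.8 with the group's mean deviation, of which 68 were members and 204 were not. Those 204 had a median difference of 0.56 at 1M and 0.26 at 4M, and 143 were higher in net-pen at both times. The limit of 0.6 thus divided a larger set of features that varied together.

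Among the named members of this group, Ssa#GRASP221221581 had the largest smaller-of-both-times difference of all higher members. Its log2 level was 8.97, 11.22 and 11.74 (lowest, median, highest) in net-pen 1M and 6.30, 9.37 and 11.60 in S-CCS 1M. After 4M it was 4.64, 9.43 and 12.07 in net-pen and 4.58, 7.59 and 9.78 in S-CCS. The difference of medians was 1.84 at both times, yet 1 net-pen fish at 1M and 2 at 4M lay above all S-CCS fish. Smolts, at 7.73, 10.72 and 12.24, overlapped every sea group.

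Ssa#TC109955, Ssa#TC99069 and Ssa#S35139299 followed it from fish to fish, with r of 0.95, 0.96 and 0.97. Ssa#TC99069 was at 11.75, 13.43 and 13.96 in net-pen 1M, at 8.12, 11.65 and 13.83 in S-CCS 1M, at 5.73, 12.41 and 13.21 in net-pen 4M and at 7.19, 10.77 and 12.86 in S-CCS 4M. The lowest fish of all was again net-pen 4M fish 12, far under its 5 group mates, while the medians kept net-pen higher by 1.78 and 1.64. Ssa#TC109955 differed by 2.07 at 1M and 1.80 at 4M, and Ssa#S35139299 by 2.00 and 1.63. Both overlapped between the systems at both times.

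Ssa#S35505749 belonged to the co-varying group with another pattern. Its level was 8.29, 9.39 and 10.20 in net-pen 1M and 6.21, 6.63 and 7.51 in S-CCS 1M, and the 6 net-pen fish lay above all S-CCS fish. The 4M levels were 5.78, 9.13 and 14.06 in net-pen and 4.81, 7.49 and 9.22 in S-CCS. There 3 of 6 net-pen fish lay above all S-CCS fish, and the net-pen fish spread over the widest range. Smolts were at 5.91, 6.92 and 7.86, below every net-pen 1M fish.

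The other 44 higher members were less variable. Their mean level was -0.21, 0.18 and 0.42 in net-pen 1M and -0.91, -0.67 and -0.01 in S-CCS 1M. The highest S-CCS fish, fish 2, was the only one inside the net-pen range. At 4M the level was 0.90, 1.30 and 1.60 in net-pen and -0.20, -0.14 and 0.38 in S-CCS. The fish did not overlap, a separation that the choice of the members and averaging over members that vary little together both favour. The difference was larger at 4M in 36 of these 44, whereas it was larger at 1M in 62 of the 72 co-varying features. The same values chose the members. Of the 44, 6 reached the minimum M only through net-pen 4M, which favours a larger difference at 4M. Of the 72, 3 reached it only through 1M groups, and the 72 varied together. Nothing is therefore read from this contrast.

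Ssa#S35554696 led the 44. Its level was 10.21, 11.87 and 12.84 in net-pen 1M against 9.28, 10.04 and 11.02 in S-CCS 1M. At 4M it was 10.14, 13.30 and 14.25 in net-pen against 10.57, 10.88 and 11.06 in S-CCS. In net-pen 5 of 6 fish at 1M and 4 of 6 at 4M lay above all S-CCS fish, and the other 2 at 4M lay below all of them. Smolts, at 9.64, 10.50 and 11.23, lay with S-CCS.

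Ssa#KSS4331 and Ssa#GRASP209154611 moved as one, with r of 0.996 over the 31 fish. Ssa#KSS4331 was at 8.97, 10.92 and 12.29 in net-pen 1M against 8.72, 9.21 and 9.99 in S-CCS 1M. The 4M levels were 10.51, 12.01 and 13.13 against 8.67, 9.49 and 10.96. Net-pen fish above all S-CCS fish numbered 4 of 6 at 1M and 5 of 6 at 4M, and smolts (8.29, 9.18 and 9.69) again lay with S-CCS.

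**Figure D4:**
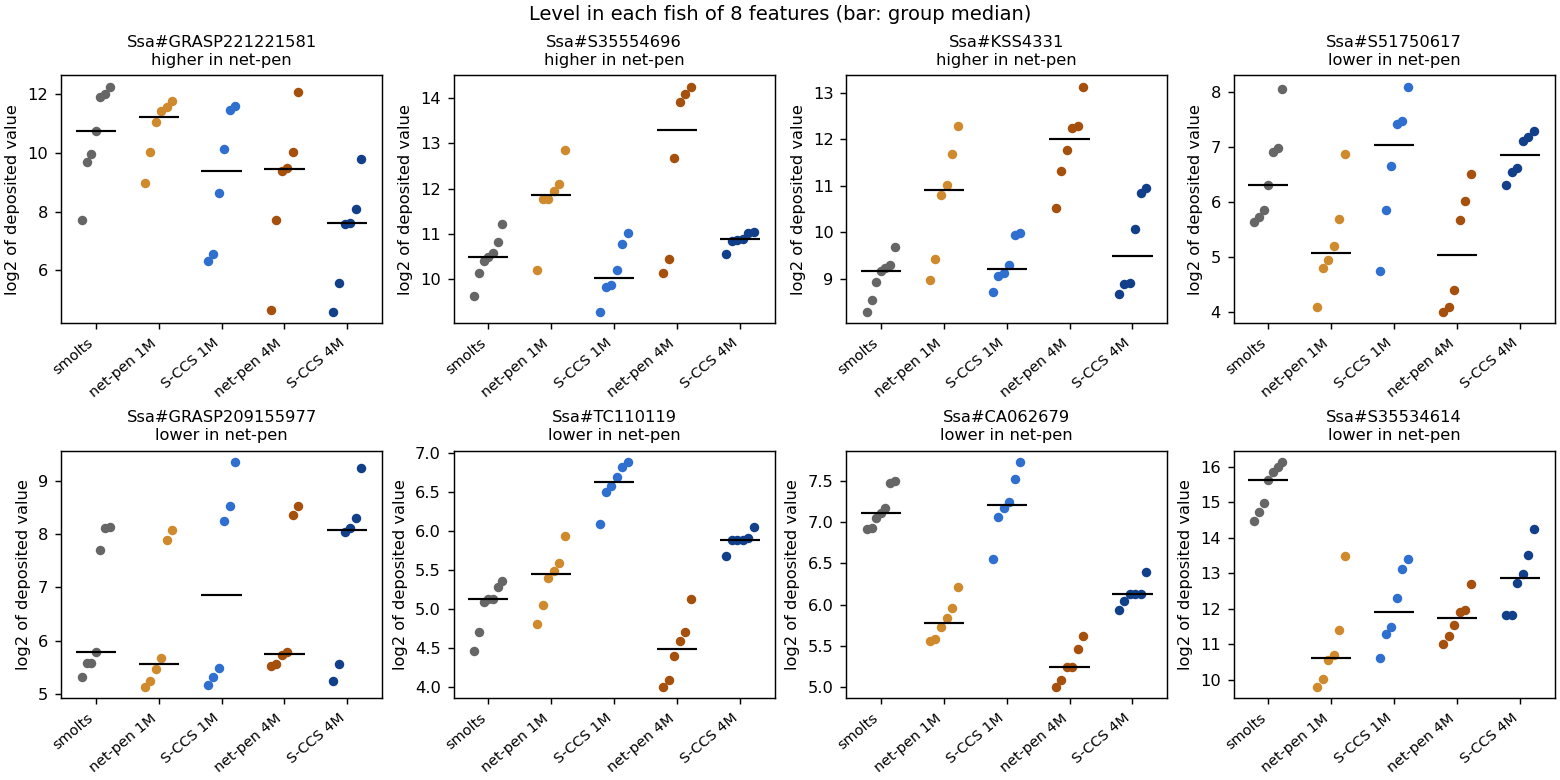
Log2 of the deposited intensity in each fish (points) for 8 named members by group, with bars at group medians. Ssa#TC110119 and Ssa#CA062679 keep the systems apart at both times, Ssa#GRASP221221581 overlaps at both, and Ssa#GRASP209155977 takes either a low or a high level in every group.

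The 43 members lower in net-pen had a mean level of -0.74, -0.34 and 0.06 in net-pen 1M and 0.26, 0.48 and 0.93 in S-CCS 1M. At 4M it was -0.91, -0.57 and -0.05 in net-pen and 0.12, 0.26 and 0.37 in S-CCS. The fish of the systems did not overlap at either time, which the rule favours, as does averaging over members that vary little together. Smolts, at 0.06, 0.35 and 0.51, lay in or near the S-CCS range.

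Ssa#TC110119 was at 4.81, 5.44 and 5.93 in net-pen 1M and at 6.09, 6.63 and 6.88 in S-CCS 1M. The 4M levels were 4.0, 4.49 and 5.13 in net-pen and 5.67, 5.88 and 6.04 in S-CCS. Every S-CCS fish was above every net-pen fish of the same time, and smolts, at 4.46, 5.13 and 5.36, lay below all S-CCS fish. The lowest net-pen 4M fish stood at the floor of the table.

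Ssa#CA062679 was at 5.55, 5.78 and 6.21 in net-pen 1M and at 6.55, 7.20 and 7.73 in S-CCS 1M. At 4M it was at 5.0, 5.25 and 5.61 in net-pen and at 5.93, 6.13 and 6.39 in S-CCS. It too kept the fish apart at both times, but here smolts, at 6.92, 7.11 and 7.49, lay with S-CCS 1M. The difference of medians was -1.42 at 1M and -0.88 at 4M.

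Ssa#S51750617, Omy#utu04d03 and Ssa#GRASP209732085 moved together, with r between 0.98 and 0.99. The first was at 4.09, 5.08 and 6.88 in net-pen 1M against 4.75, 7.04 and 8.10 in S-CCS 1M, and at 4.0, 5.03 and 6.51 in net-pen 4M against 6.30, 6.86 and 7.29 in S-CCS 4M. Only 1 net-pen fish at 1M lay below all S-CCS fish, and 5 of 6 did at 4M. Smolts were at 5.64, 6.30 and 8.06, inside the S-CCS 1M range. In Omy#utu04d03 the differences were -1.97 and -1.77, and in Ssa#GRASP209732085 -1.63 and -1.76.

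Ssa#GRASP209155977 entered through the share of fish at a high level. Its 31 fish had levels from 5.13 to 9.35 with no fish between 5.78 and 7.69, and each group held fish on both sides. Fish above the gap numbered 2 of 6 in net-pen 1M and 3 of 6 in S-CCS 1M, 2 of 6 in net-pen 4M and 4 of 6 in S-CCS 4M, and 3 of 7 in smolts. Behind its differences of medians of -1.30 at 1M and -2.32 at 4M, the systems' counts of high fish differed by 1 and by 2.

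Ssa#GRASP209736835 was at 5.49, 6.34 and 7.73 in net-pen 1M against 7.73, 7.90 and 8.14 in S-CCS 1M, and at 5.39, 6.49 and 7.58 in net-pen 4M against 7.21, 7.60 and 7.64 in S-CCS 4M. In 5 of 6 net-pen fish it lay below all S-CCS fish at each time. Over fish it ran against Ssa#S35554696, with r of -0.70. The S-CCS fish lay close together and the net-pen fish did not.

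The mean of both systems was tested, since it does not use their difference. A change in this mean can come from either system alone. In limma with Benjamini-Hochberg adjustment over 14172 features, all 159 members were kept, and 102 of 116 and 39 of 43 were well above background on every array. Log2 expression ratios (log2-ER) of the mean of both systems against smolts, and of 4M against 1M, were called at an adjusted p under 0.05. At 1M against smolts 13.2% of all features were called, 6.83% higher and 6.34% lower. Of the 116 higher members 7 were called, all higher than in smolts and all outside the co-varying group. Without the 3 that reached the minimum M only through 1M groups, 7 of 113 were higher (6.19%). Of the 44 outside the co-varying group, 15.9% were. Among all features reaching the minimum, 8.2% were higher after the same exclusion. None of the 116 was called lower, with 2 lower at an unadjusted p under 0.05. Of the 72 co-varying features 0 were called and 1 had an unadjusted p under 0.05, in the same limma fit. Of the 43 lower members 15 were called, 5 higher and 10 lower. The minimum M favoured a call in those that reached it only through 1M groups (4) or only through smolts (3). Of the other 36, 3 were higher (8.33%) and 7 lower (19.4%). Among all features reaching the minimum, the shares after the same exclusion were 8.2% and 7.51%.

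At 4M against smolts 25.9% of features were called, 12.5% higher and 13.4% lower. Outside the co-varying group 31 of the 44 members rose and 0 fell, with 0 lower at an unadjusted p under 0.05. The minimum M favoured such a rise in 9 of the 44, which reached it only through 4M groups (6 of them through net-pen 4M alone). Of the other 35, 23 rose (65.7%), where 15.2% did among all features reaching the minimum after the same exclusion. In the co-varying group, where this exclusion removed none, 2 of 72 rose (2.78%) and 13 fell (18.1%). Among all features reaching the minimum, 15.2% rose and 16.8% fell, so the share that fell was near theirs. At an unadjusted p under 0.05 in the same limma fit, 35 of the 72 were lower and 3 higher. The 72 spread more widely within groups, so a like share of calls does not mean a like change. Of the 43 lower members 2 rose and 14 fell. Without the 3 that reached the minimum only through smolts, 2 of 40 rose (5%) and 11 fell (27.5%), where 15.2% and 16.8% of all features reaching it did. The median log2-ER was 1.44 in the 44, -1.44 in the 72 and -0.34 in the 43, beside 0.01 over all features. The number that fell was not stable. All 13 lower calls among the 116 lay in the co-varying group. Over single fish left out, the lower calls ran from 4, without smolt fish 2, 3 or 7, to 39, without smolt fish 1. This was the smolt with the lowest level of the group, and its array had the lowest log2 mean signal of all (9.87). The part of this signal in the calls was not tested. The lower calls were 39 with normexp background correction, 53 with array weights, 14 with slide as a random block and 5 with fish number as a replicate block. In fits chosen after seeing the data they were 8 without net-pen 1M and 2 without net-pen 1M and with slide as a fixed block.

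From 1M to 4M, over both systems, 9.94% of features were called, 5.31% higher and 4.62% lower. Of the 44 members outside the co-varying group 23 rose and 0 fell, with 0 lower at an unadjusted p under 0.05. Without the same 9, 15 of 35 rose (42.9%), where 6.31% of all features reaching the minimum did. In the co-varying group 5 fell and 0 rose, while 46 were lower and 1 higher at an unadjusted p under 0.05. Of the 43 lower members 10 fell and 0 rose, with 3 higher at an unadjusted p under 0.05. Without the 4 that reached the minimum only through 1M groups, 8 of 39 fell (20.5%), where 6.03% of all features reaching it did. The median log2-ER was 1.04, -1.50 and -0.13 in the 44, the 72 and the 43, and -0.01 over all features. The 5 of 72 that fell were a share near that of all features.

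**Figure D5:**
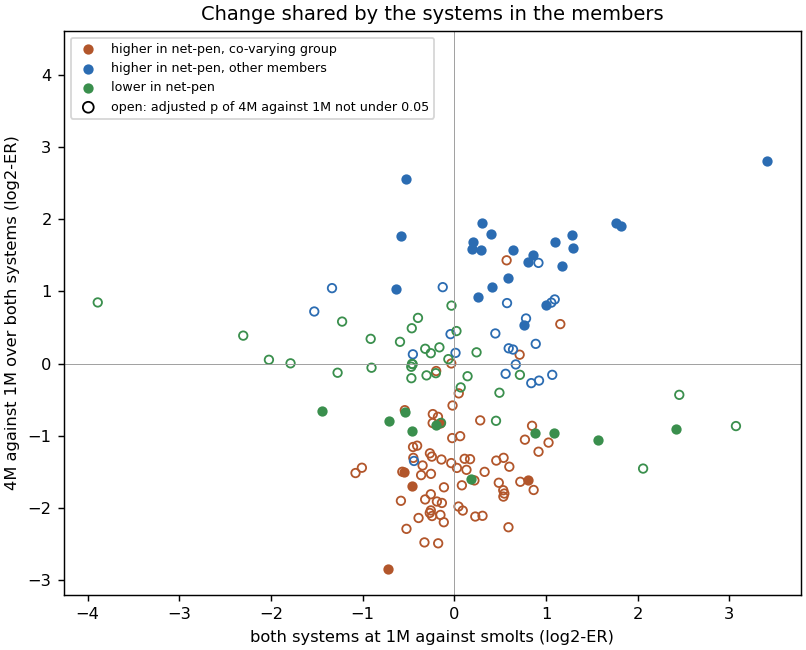
Change in the mean of both systems in the 159 members, in log2-ER. The horizontal axis gives 1M against smolts and the vertical axis 4M against 1M. Either system alone can move this mean. Filled points had an adjusted p under 0.05 for 4M against 1M, 23 higher among the 44 members outside the co-varying group, 5 lower within it and 10 lower among the 43.

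A cluster of 11 of the 44, the second largest by co-variation, carried part of this rise. All 11 rose at 4M against smolts and 10 rose from 1M to 4M, but 5 of them reached the minimum M only through 4M groups, so that a high 4M level was part of their selection. Of the other 6, 6 rose at 4M against smolts and 5 from 1M to 4M. The mean level of all 11 was -1.87, -0.81 and -0.60 in smolts, -1.04, 0.03 and 0.42 in net-pen 1M and -1.33, -0.86 and 0.40 in S-CCS 1M. The 4M levels of all 11 were 0.79, 1.72 and 2.17 in net-pen and -0.79, 0.27 and 0.92 in S-CCS. Of the net-pen fish at 4M, 5 of 6 lay above all S-CCS fish. The rule favours this separation, and 4 of the 11 reached the minimum M only through net-pen 4M, which favours it further.

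Ssa#S30269971 showed the greatest change in the mean of both systems among the higher members. It was at 4.95, 5.93 and 7.75 in smolts, 9.05, 10.12 and 13.89 in net-pen 1M and 6.54, 7.27 and 10.37 in S-CCS 1M, and at 9.39, 12.28 and 14.26 in net-pen 4M and 11.05, 11.62 and 13.68 in S-CCS 4M. Every sea fish at 4M was above every smolt. The rise was 3.41 ± 0.70 (SE) at 1M with an adjusted p of 0.00127 in limma, and 6.21 ± 0.70 at 4M with one of 3.14e-07. With normexp background correction the rise at 1M was 2.17 with an adjusted p of 0.0573, so that call was lost, and over all alternatives the adjusted p ran from 0.000246 to 0.0573. The medians of the systems differed by 2.85 at 1M and 0.66 at 4M. In the limma fit, net-pen minus S-CCS was 3.50 ± 0.85 (SE) at 1M and 0.05 ± 0.85 at 4M. The difference at 4M thus lay in the medians only.

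Ssa#S35691932 and Ssa#S32010836, with r of 0.99 between them, rose by 3.72 ± 0.35 and 3.70 ± 0.35 at 4M (limma adjusted p 2.69e-08 and 2.53e-08). Ssa#S35691932 was at 4.0, 4.25 and 4.91 in smolts, 5.46, 6.66 and 6.87 in net-pen 1M and 5.04, 5.41 and 6.00 in S-CCS 1M, and at 7.10, 8.18 and 8.55 in net-pen 4M and 6.38, 6.98 and 10.11 in S-CCS 4M. No smolt reached the lowest sea fish, and 1 S-CCS 4M fish stood above all net-pen fish.

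Ssa#S35517739 did not pass against smolts at 1M (-0.53 ± 0.46, limma adjusted p 0.517) and rose from 1M to 4M by 2.56 ± 0.40 (adjusted p 0.000118). It was at 8.38, 9.28 and 10.91 in net-pen 1M and 7.63, 8.30 and 9.89 in S-CCS 1M, and at 10.94, 12.56 and 13.63 in net-pen 4M and 8.58, 10.55 and 11.90 in S-CCS 4M. All net-pen fish at 4M lay above all of their 1M fish.

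Of the leading members outside the co-varying group, Ssa#GRASP209154611 rose at 4M against smolts by 1.98 ± 0.40 (limma adjusted p 0.000433), Ssa#KSS4331 by 1.90 ± 0.39 (adjusted p 0.000577) and Ssa#S35554696 by 1.41 ± 0.44 (adjusted p 0.0168). Medians in smolts, S-CCS 4M and net-pen 4M were 9.18, 9.49 and 12.01 in Ssa#KSS4331 and 10.50, 10.88 and 13.30 in Ssa#S35554696. In both the rise lay mostly in net-pen, whose excess over S-CCS had ranked them as leading. In the co-varying group Ssa#GRASP209737261 changed most over time. It was at 5.21, 7.94 and 9.53 in net-pen 1M and 4.75, 6.54 and 8.17 in S-CCS 1M, and at 4.0, 5.08 and 5.88 in net-pen 4M and 4.0, 4.23 and 6.29 in S-CCS 4M. In each system the fish of the 2 times overlapped. The log2-ER of 4M against 1M was -2.85 ± 0.61 (limma adjusted p 0.00267). Ssa#GRASP221221581 was at -2.48 ± 0.93 at 4M against smolts with an adjusted p of 0.0485 in limma, a call that was lost in 23 of 41 alternatives, with adjusted p from 0.00577 to 0.108.

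Among the lower members Ssa#S35534614 lost most after transfer. Smolts were at 14.47, 15.62 and 16.13, net-pen 1M at 9.80, 10.62 and 13.48, S-CCS 1M at 10.61, 11.91 and 13.41, net-pen 4M at 11.00, 11.74 and 12.70 and S-CCS 4M at 11.82, 12.85 and 14.24. No sea fish reached the lowest smolt. The log2-ER was -3.89 ± 0.46 at 1M (limma adjusted p 1.13e-06) and -3.04 ± 0.46 at 4M (adjusted p 1.53e-05). M in net-pen minus M in S-CCS was -1.28 at 1M and -1.12 at 4M, with 3 of 6 net-pen fish below all S-CCS fish at each time.

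Ssa#S35588835 also fell in the mean of both systems, by 1.79 ± 0.25 at 1M (limma adjusted p 1.1e-05) and by 1.78 ± 0.25 at 4M (adjusted p 4.67e-06). Smolts were at 6.25, 6.85 and 7.33, net-pen at 4.09, 4.55 and 5.43 at 1M and 4.0, 4.43 and 5.75 at 4M, and S-CCS at 4.75, 5.91 and 6.38 at 1M and 4.95, 5.94 and 6.61 at 4M. Each net-pen fish lay below each smolt, and S-CCS fish overlapped smolts at the upper end. Only smolts brought this feature to the minimum M, so a high smolt level was part of its selection, which favours a fall at both times.

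The members whose fish stayed apart went different ways against smolts. In the mean of both systems Ssa#CA062679 fell by 0.72 ± 0.14 at 1M (limma adjusted p 0.000963) and by 1.51 ± 0.14 at 4M (adjusted p 2.53e-08). Its fall at 1M lay in net-pen, while the median of S-CCS 1M was near that of smolts. Ssa#TC110119 rose by 1.09 ± 0.20 at 1M (adjusted p 0.000388) and then fell by 0.96 ± 0.17 from 1M to 4M (adjusted p 0.000529), with 0.13 at 4M against smolts (adjusted p 0.696). At 1M the rise of its median over smolts was larger in S-CCS than in net-pen. It reached the minimum M only through S-CCS 1M, so a high 1M level was part of its selection, which favours both changes. Ssa#EG808094 rose by 3.07 ± 0.57 at 1M (adjusted p 0.000432) from smolts of which 3 of 7 were well above background, so its size depends on values near background. This feature, too, reached the minimum M only through S-CCS 1M, which favours a rise at 1M.

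Where smolts lay between or outside the systems differed between the parts, as a description of medians. In the co-varying group M of smolts was nearer to net-pen in 56 of 72 features at 1M and in 69 of 72 at 4M, and above both systems in 65 at 4M. In the other 44 M of smolts was nearer to S-CCS in 34 at 1M and 40 at 4M. It was below both systems, which the rule makes nearer to S-CCS, in 20 at 1M and 34 at 4M. In the 43 lower members M of smolts was nearer to S-CCS in 28 at 1M and 31 at 4M. There it was above both systems, which the rule again makes nearer to S-CCS, in 11 and 19. Nothing is read from these counts.

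In the normalised log2-ER, 114 of 116 and 42 of 43 members kept the direction of the rule at both times, where 18.7% of all features were positive and 18.7% negative at both. The same arrays and the same difference chose the members, so these counts were favoured in advance and nothing is read from them. Of the 7 arrays on which the scanner software had divided the signal by a spatial trend, 4 were net-pen 4M. The deposited values that chose the members come from the median signal before that step. The tests used the processed signal, which carries it. With the deposited values in its place, calls at 4M against smolts were 46 of 116 and 15 of 43, and 46 and 16 here. Members lay in rows 1 to 192 and columns 1 to 82 of the array, which is its whole area. Probe IDs beginning with Omy# made up 5 of 116, 2 of 43 and 1292 of all 14841.

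How firmly single features belonged to the set varied. The co-varying group kept 38 of its 72 members without S-CCS 1M fish 2, 6 or 12. On leaving out one fish at a time, 55 of 116 and 18 of 43 met the rule in all 31 repeats. Without S-CCS 1M fish 2, whose array had the highest share of features well above background (97.1%), there were 77 lower members in place of 43, and without S-CCS 1M fish 6 or fish 11 there were 75.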

How the data were processed

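Skin of 31 fish was measured on single-colour arrays, one fish per array. The authors deposited scanner tables, whose processed signal is an intensity after background subtraction, and a table of values. Set against the scanner columns, its values are background-subtracted median signals multiplied by an array-specific factor (the log2 of the quotient had an SD of 0.00102 to 0.00133 within arrays, over values of at least 200), so the table was taken as scaled intensity. It chose the members, by group medians in log2 with a floor of 16. The members, lists and rule for named features were chosen with earlier results of these data known. Named features were the 8 leading members in each direction, members whose fish did not overlap at both times, those next to the limit, and the 3 with the largest called log2-ER per contrast.

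For the tests, the processed signal was scaled to equal array means, divided by the feature mean and corrected by lowess (span 0.3). Features well above background on at least 50% of arrays of one group were kept (14172, with 669 removed), and 145 values marked as outliers were left out. Python 3.11.15 with pandas 2.3.3 and limma 3.58.1 in R 4.3.3 were used, with one fit of 5 groups. Members were clustered with scipy 1.17.1. The number of arrays limits the precision. On simulated data with 100 of 14172 features changed by a log2 of 1, the fit recovered 75 in 1M against smolts, 75 in 4M against smolts and 84 in 4M against 1M. These features were drawn at random, with noise independent between features. Such recovery therefore does not describe the co-varying group, whose members varied more within groups and varied together. Alternatives covered the floor, the limits, scaling, background correction, filters, array weights, blocks and single fish.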

Additional observations from a re-analysis of the deposited data

Results flagged for a closer look

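Of 105 groups of fish examined for one fish far from the rest of its group by Dixon's criterion, 6 were picked out, and chance picks about 1 in 20 (5.25 here). In the mean level of the cluster of 11 higher members, S-CCS 1M fish 2 was at 0.40, above its group mates at -1.33 to -0.69. Ssa#TC99069 had a low fish in net-pen 4M, fish 12, at 5.73 against 10.6 to 13.2, and one in smolts, fish 1, at 8.84 against 12.6 to 15.1. Ssa#S35139299 was at the floor, 4.0, in net-pen 4M fish 12, against 10.4 to 13.4 in the others. Ssa#S35588835 was highest in the same net-pen 4M fish 12, at 5.75 against 4.0 to 4.52. Ssa#GRASP209736835 was at 8.99 in smolt fish 2, against 7.22 to 7.80. Net-pen 4M fish 12 accounts for 3 of the 6, and without it 131 features in place of 116 met the rule for higher in net-pen.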

How the results depend on the processing

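Members lower in net-pen numbered 43, and 15 at a difference of at least 0.8, 66 at 0.5 and 21 with a minimum M of 8. Higher members numbered between 78 (difference 0.8) and 154 (difference 0.5) over all settings of the rule other than single fish. Group means gave 94 and 34, of which 73 and 24 were among the members. Without one fish the higher members numbered 81 to 131 and the lower ones 35 to 77, and 38 of the 72 co-varying features met the rule without S-CCS 1M fish 2, 6 or 12. At 1M against smolts, calls among the higher members were 7, and 4 with normexp, 11 with the deposited values, 17 with array weights and 17 at the criteria of the methods (unadjusted p under 0.05, absolute log2-ER above 0.8). At 4M against smolts they were 46, and 87 with array weights. At 4M against 1M they were 28, and 69 with array weights and 72 at the criteria of the methods. The cause of these shifts was not tested. Without one fish the calls ran from 5 to 13 (13 without net-pen 1M fish 12), 36 to 70 (70 without smolt fish 1) and 26 to 41 in the higher members, and from 13 to 17, 14 to 16 and 9 to 13 in the lower ones. Over the other settings, 75th percentile and quantile scaling and the other filters included, total counts stayed within 1.5 times, but the lower calls among the higher members at 4M against smolts, 13 here, were 39 with normexp, 53 with array weights, 35 at the criteria of the methods and 5 with fish number as a block, and those at 4M against 1M, 5 here, were 43 with array weights and 44 at the criteria of the methods. Of 28 called effects of 14 named features, 25 kept their call under each alternative run, 3 lost it under some and 0 were reversed. With net-pen 1M left out, since it shared no slide with another group, calls at 4M against smolts were 41 and 17. With slide as a fixed block as well, they were 32 and 13. Within slides that held smolts, the co-varying group's level against smolts was 0.72 for net-pen 4M and -0.23 and -2.73 for S-CCS 4M, 2 fish against 2 each, and that of the other 44 was 1.61, 0.74 and 0.85. With slide as a random block (correlation -0.04) calls were 9, 47 and 29 in the higher members. Fish numbers do not pair the fish: same-numbered fish correlated between -0.42 and 0.35 over 60 pairs, 16 of them over 0.1. With fish number as a replicate block, calls were 7, 38 and 31 in the higher members and 14, 15 and 10 in the lower ones.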
